A study of Mus musculus with 12 samples.

Results

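The matrix metalloproteinases (MMPs), the ADAM and ADAMTS proteases, the ADAMTS-like proteins and the tissue inhibitors of metalloproteinases (TIMPs) were followed at the RNA level in mouse hearts after acute myocardial infarction (AMI). The genes were taken by name, as every row whose symbol begins with Mmp, Adam, Adamts, Adamtsl or Timp followed by a digit, which gave 84 of 53801 genes. RNA from whole hearts of C57BL/6N mice was sequenced in 3 groups of 4 hearts, 1 library per heart: sham surgery, 1 day after AMI (day 1 AMI) and 7 days after AMI (day 7 AMI). All mice were adult males with no named genetic change, and AMI was produced by tying off the left anterior descending coronary artery through an opened chest. The methods of the study give an age of 10 to 14 weeks for the mice it operated on, without tying an age to a library. The protocol in the labels names days 0, 1 and 7 for all samples and does not say on which the sham hearts were collected. Infarct, border and remote muscle were not separated, so a change in the number of cells of a type and a change in RNA per cell cannot be told apart in any of the values. The 12 libraries held 23204551 to 32166517 counts.

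MMPs are zinc proteases that are secreted or held at the cell surface as inactive precursors and that cleave collagens, elastin, laminin and other matrix proteins, and TIMPs bind to their active sites and block them. ADAMs are membrane proteases best known for releasing the outer parts of cytokines, growth factors and receptors, although several have lost the catalytic site. ADAMTS enzymes are secreted and cleave large proteoglycans or trim procollagens, and ADAMTS-like proteins share their accessory domains without the protease. In infarcted muscle these families take part in the removal of dead tissue and the laying down of a collagen scar.

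Levels are given as CPM, counts scaled to one library size with edgeR's TMM method, and hearts are listed in the order of their replicate number. Log2 fold changes (FCs) are from edgeR's quasi-likelihood test on one fit of all 12 libraries, each given ± its standard error (SE), and adjusted p-values are Benjamini-Hochberg values over the 15306 genes that passed a filter on low counts. A gene was called higher or lower at a FC of 2 or greater with an adjusted p below 0.05, and "rose" and "fell" are used only for called genes. The filter left 56 of the 84 genes, and the other 28 had too few counts in every group to be tested. Of these 28, 20 were ADAMs, 15 had no count in any library, 24 had at most 3 counts in each library, and none had more than 13. Levels of 3 counts or fewer in a library are treated as its detection floor, which allows for counting error only.

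Calls among the families were mostly higher after AMI, and there were more of them on day 7 than on day 1. In all 14 of the 56 tested genes (25%) were called on day 1 against sham, 27 (48.2%) on day 7 against sham and 21 (37.5%) between the days, beside 10.8%, 21.2% and 11.2% of all tested genes. On day 1, 13 genes rose and 1 fell against sham, or 23.2% and 1.79% of the 56, where 7.79% and 2.98% of all tested genes were called in the same directions. On day 7, 25 rose and 2 fell against sham, or 44.6% and 3.57%, beside 15.3% and 5.88% of all tested genes. From day 1 to day 7, 15 rose and 6 fell, or 26.8% and 10.7%, beside 8.55% and 2.69%. The median log2 FC of the 56 genes was 0.18, 0.90 and 0.53 in these 3 comparisons, and that of all tested genes was -0.01, 0.03 and 0.02. The compared groups of hearts lay fully apart in 24, 39 and 31 of the 56 genes, or 42.9%, 69.6% and 55.4%, where 36.7%, 53.0% and 44.5% of all tested genes lay apart. Without the FC minimum, 27, 39 and 38 of the 56 genes had an adjusted p below 0.05, as did 41.8%, 59.3% and 47.0% of all tested genes. Both comparisons with sham use the same 4 sham hearts. No p was computed for the families as a whole, since they were chosen with earlier results of these data known.

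Of the 56 genes, 32 were called in at least 1 comparison and 24 in none. On both days 9 genes rose against sham, namely *Timp1*, *Mmp12*, *Mmp14*, *Mmp19*, *Adam8*, *Adam12*, *Adamts4*, *Adamts8* and *Adamts14*. *Timp4* fell on both days, and *Mmp3* rose on day 1 and fell on day 7. Calls on day 1 alone were made for 3 genes, *Mmp9*, *Mmp24* and *Adamts1*. Calls on day 7 alone were made for 16 genes, all higher, among them *Mmp2*, *Mmp23*, *Timp2*, *Adamts2*, *Adamts12*, *Adamts16* and *Adamtsl2*. A call on one day only does not show that the days differ, which the direct comparison of day 7 with day 1 tests. In that comparison 13 of the 16 genes also rose, and *Mmp9* and *Mmp24* fell. Below the FC minimum, *Adam19* (log2 FC 0.99, adjusted p = 0.0016) and *Adamts6* (0.98, adjusted p = 2.5e-05) were higher on day 7. *Adamts1* was lower (-0.95, adjusted p = 0.00756), also below that minimum. *Mmp13* did not pass the test (0.17, adjusted p = 0.621).

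**Figure D1:**
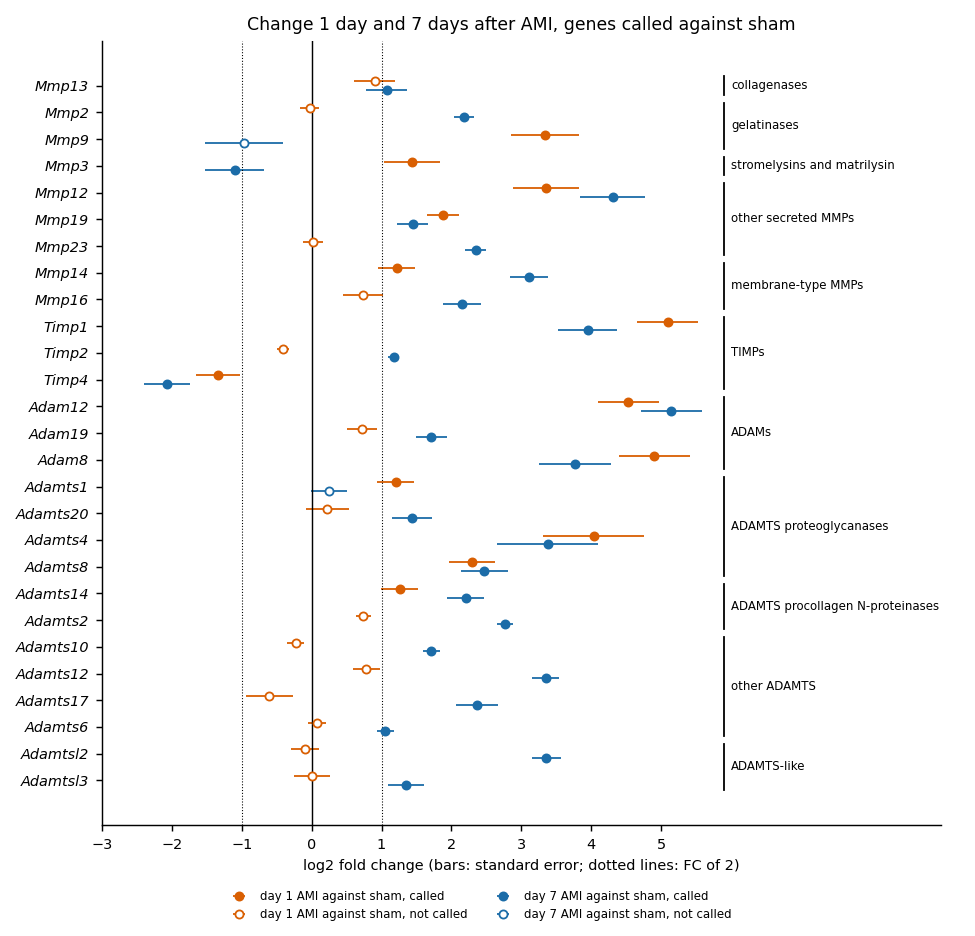
Log2 FC against sham (x axis) of 27 genes called in at least 1 comparison with sham, by family, for day 1 AMI (orange) and day 7 AMI (blue), with bars for the SE, filled points for called values and dotted lines at a FC of 2. *Timp1*, *Adam8* and *Adam12* lie farthest to the right on day 1, *Timp4* lies to the left on both days, and 3 called genes with few counts (*Mmp24*, *Adam5* and *Adamts16*) are not drawn.

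The 4 TIMPs moved apart from one another: *Timp1* rose on both days, *Timp2* rose on day 7, *Timp4* fell on both days, and *Timp3* was not called. *Timp1* (ENSMUSG00000001131, chrX:20870166-20874735), a secreted inhibitor that is also induced by inflammatory cytokines, had 2.66, 5.42, 1.94 and 1.53 CPM in the sham hearts. It reached 91.7, 149, 81.7 and 79.4 CPM in day 1 AMI and 80.1, 37.7, 23.7 and 40.1 CPM in day 7 AMI. Every infarcted heart was above every sham heart, and the day 7 heart of replicate 1 reached into the range of day 1. The log2 FC was 5.09 ± 0.44 (adjusted p = 6.43e-06) on day 1 and 3.95 ± 0.43 (adjusted p = 3.01e-06) on day 7. From day 1 to day 7 *Timp1* fell with a log2 FC of -1.14 ± 0.35 (adjusted p = 0.0147), a call that was lost without the day 1 heart of replicate 2 (log2 FC -0.89) or the day 7 heart of replicate 3 (log2 FC -0.93).

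*Timp2* (ENSMUSG00000017466, chr11:118301069-118355740), which inhibits MMP2 and also helps MMP14 to activate it at the cell surface, had 148, 132, 119.9 and 124 CPM in sham, 103, 99.8, 95.8 and 95.6 CPM in day 1 AMI and 324, 284, 277 and 299 CPM in day 7 AMI. No 2 groups overlapped, with the day 1 hearts lowest and the day 7 hearts highest. The day 1 difference was below the FC of 2 (log2 FC -0.41 ± 0.08, adjusted p = 0.00137). *Timp2* rose on day 7, with a log2 FC of 1.17 ± 0.08 (adjusted p = 9.18e-08) against sham and a log2 FC of 1.58 ± 0.08 (adjusted p = 1.58e-08) against day 1.

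*Timp4* (ENSMUSG00000030317, chr6:115241892-115252205), a TIMP known for its expression in heart muscle, was the only TIMP to fall against sham. It had 36.3, 39.1, 34.3 and 40.7 CPM in sham, 7.00, 27.4, 8.87 and 16.1 CPM in day 1 AMI and 9.0, 9.27, 11.3 and 6.22 CPM in day 7 AMI. All 8 infarcted hearts were below the sham hearts, with the day 1 hearts spread from near the sham range to the level of day 7. The log2 FC was -1.33 ± 0.32 (adjusted p = 0.00417) on day 1 and -2.07 ± 0.33 (adjusted p = 8.89e-05) on day 7, and the 2 days were not called different (log2 FC -0.74 ± 0.32, adjusted p = 0.0762). The summed level of 7 cardiomyocyte markers was also lower after AMI. It was 65615 to 78140 CPM in sham hearts, 41267 to 52061 CPM on day 1 and 36256 to 41361 CPM on day 7. *Myh6* held the largest part, with 32762 to 37374 CPM in sham hearts. None of the 7 was called on day 1, and 5 fell on day 7. *Actc1* did not pass the test on either day (log2 FC -0.10, adjusted p = 0.691, and -0.17, adjusted p = 0.458), and *Ryr2* stayed below the FC of 2 (-0.34 and -0.68). The part of these markers in the *Timp4* result was not tested.

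*Timp3* (ENSMUSG00000020044, chr10:86300372-86349506), which binds to the matrix and inhibits ADAM17 as well as MMPs, had 177, 194, 203 and 315 CPM in sham, 193, 215, 176 and 137 CPM in day 1 AMI and 283, 309.7, 303 and 241 CPM in day 7 AMI. The day 1 hearts overlapped with the sham hearts, and the day 7 hearts overlapped with sham only in replicate 4, the highest heart of all. No comparison was called, and the log2 FC was 0.35 ± 0.17 (adjusted p = 0.0903) on day 7 against sham. Of its exonic bases, 21.3% overlap genes on the other strand, and the strand counted is not given in the sources used here.

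**Figure D2:**
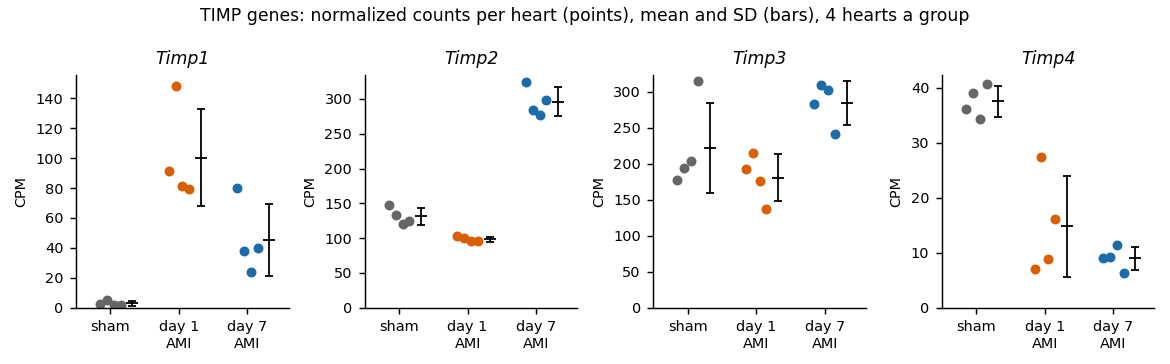
TMM-normalized CPM (y axis, linear, from 0) of the 4 TIMP genes in each heart, as points by group, with the mean and SD of 4 hearts beside them. *Timp1* runs from 1.53 to 5.42 CPM in sham hearts and is at least 79.4 CPM in every day 1 heart, while *Timp4* runs from 34.3 to 40.7 CPM in sham hearts and is at most 27.4 CPM after AMI.

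To compare levels between genes, TPM were used, which allow for gene length as well as library size. The TPM of the 4 TIMPs summed to 116 ± 13.4 (SD, n = 4) in sham, 335 ± 87.6 on day 1 and 368 ± 78.2 on day 7. Among the TIMPs, *Timp3* (54.0 ± 15.1 TPM) and *Timp2* (41.3 ± 3.00 TPM) were highest in sham hearts, with overlapping hearts. On day 1 *Timp1* was far above the others at 235 ± 75.5 TPM and made up 69.2% ± 3.58 of the TIMP sum, from 4.56% ± 2.72 in sham. On day 7 *Timp2* (137 ± 12.5 TPM), *Timp1* (124 ± 68.2 TPM) and *Timp3* (102 ± 8.51 TPM) were the leading 3, with the hearts of *Timp1* overlapping both others and those of *Timp2* all above those of *Timp3*, and *Timp1* was 32.1% ± 10.6 of the sum. *Timp4* went from 13.5% ± 1.48 of the sum in sham to 2.17% ± 1.18 and 1.55% ± 0.607.

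The TPM of the 23 MMP genes summed to 88.0 ± 11.3 in sham, 147 ± 20.1 on day 1 and 407 ± 88.6 on day 7. The ratio of the MMP sum to the TIMP sum within a heart was 0.778, 0.835, 0.847 and 0.593 in sham, 0.431, 0.369, 0.456 and 0.544 on day 1 and 1.10, 1.09, 1.07 and 1.15 on day 7. The 3 groups did not overlap, with day 1 lowest and day 7 highest, and no test was made of this sum over chosen genes. The ratio is of transcripts and says nothing of protein or activity. In sham hearts *Mmp15* led the MMPs with 32 ± 4.98 TPM, above *Mmp2* with 23.4 ± 2.28 TPM, and on day 1 the hearts of *Mmp15*, *Mmp2* and *Mmp14* overlapped. On day 7 *Mmp2* led with 156 ± 28.4 TPM, followed by *Mmp14* with 114 ± 46.4 TPM, whose hearts overlapped with those of *Mmp2*. The share of *Mmp15* in the MMP sum went from 36.4% ± 2.70 to 23.5% ± 5.53 and 11.8% ± 1.92, while its own log2 FC was -0.24 on day 1 and -0.06 on day 7, neither of them called. On the TPM scale the median gene also moved against sham, by 0.23 on day 1 and 0.44 on day 7 on log2(TPM + 1), so sums of TPM across groups are read against that shift.

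Of the 23 MMP genes, 17 were tested, and 6 rose and none fell on day 1. On day 7, 7 rose and 1 fell against sham, and between the days 4 rose and 4 fell. Of all tested genes, 7.79%, 15.3% and 8.55% were called higher in these comparisons, and 2.98%, 5.88% and 2.69% lower. The 2 gelatinases, which degrade denatured collagen and basement membrane, took opposite courses. *Mmp9* (ENSMUSG00000017737, chr2:164940780-164955850), a product of neutrophil granules among other sources, had 2.4, 4.60, 1.02 and 0.526 CPM in sham, 21.9, 37.1, 10.01 and 18.9 CPM in day 1 AMI and 1.08, 0.889, 1.03 and 1.43 CPM in day 7 AMI. All day 1 hearts were above all others, and the day 7 hearts lay within the sham range. A rise on day 1, with a log2 FC of 3.33 ± 0.49 (adjusted p = 0.000167), was followed by a fall from day 1 to day 7, with a log2 FC of -4.30 ± 0.52 (adjusted p = 1.94e-05). On day 7 against sham the log2 FC was -0.97 ± 0.56 (adjusted p = 0.15). The sham heart of replicate 2 was the highest of its group, and without it the rise on day 1 was 4.08 on the log2 scale.

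*Mmp2* (ENSMUSG00000031740, chr8:92827291-92853420), which fibroblasts secrete, did not pass the test on day 1 and rose on day 7. The levels were 57.3, 52.7, 63.7 and 59.2 CPM in sham, 45.6, 67.6, 49.99 and 65.2 CPM in day 1 AMI and 330.3, 242, 231 and 249.7 CPM in day 7 AMI. The day 7 hearts were all above the other 8, and the day 1 hearts surrounded the sham hearts. The log2 FC was -0.03 ± 0.14 (adjusted p = 0.894) on day 1, 2.18 ± 0.14 (adjusted p = 5.23e-08) on day 7 and 2.20 ± 0.14 (adjusted p = 8.85e-08) between the days.

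A cluster of 10 MMP genes lies on chromosome 9, on chr9:7272514-7699585 of GRCm38. Of these 10, 5 were tested (*Mmp3*, *Mmp8*, *Mmp12*, *Mmp13* and *Mmp27*), and the other 5 (*Mmp1a*, *Mmp1b*, *Mmp7*, *Mmp10* and *Mmp20*) had at most 3 counts in every library. The binding motif of AP-1, the Fos and Jun transcription factor, is known from promoters of this cluster and was looked for in RefSeq promoters (GRCm38.p6), from 250 bases before to 50 bases after each start. The motif TGAGTCA, or its reverse complement TGACTCA, stood in the window of 7 of the 10 cluster genes, in 1 of their 2 promoters for *Mmp7* and *Mmp12*. It stood in that of 3 of the 43 other family members with a promoter in the tables (*Adam19*, *Adam29* and *Adam1b*), and in 5.20% of all 32851 promoters. In the 7 cluster genes the motif began 35 to 93 bases before the start. The windows of *Mmp8*, *Mmp20* and *Mmp27* did not hold these letters. A match is a string of letters and not a measured binding site. The stretches around the motif are printed because detected and undetected genes of the cluster share it, 5′ to 3′ on the strand of the gene, with the motif in capitals:
*Mmp13* (chr9:7272439-7272513, plus strand): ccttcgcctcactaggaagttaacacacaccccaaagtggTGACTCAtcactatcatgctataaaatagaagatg
*Mmp12* (chr9:7347290-7347366, plus strand): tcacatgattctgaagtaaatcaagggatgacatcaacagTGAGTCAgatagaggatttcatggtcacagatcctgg
*Mmp3* (chr9:7445736-7445812, plus strand): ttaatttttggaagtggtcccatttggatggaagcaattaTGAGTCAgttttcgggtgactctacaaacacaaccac
*Mmp10* (chr9:7502239-7502315, plus strand): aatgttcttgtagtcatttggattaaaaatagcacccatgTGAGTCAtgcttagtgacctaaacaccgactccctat
*Mmp1a* (chr9:7464028-7464104, plus strand): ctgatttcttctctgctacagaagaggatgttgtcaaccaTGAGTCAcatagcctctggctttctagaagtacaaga
*Mmp1b* (chr9:7388083-7388159, minus strand): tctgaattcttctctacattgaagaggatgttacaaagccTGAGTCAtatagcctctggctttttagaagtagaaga
*Mmp7* (chr9:7691987-7692063, plus strand): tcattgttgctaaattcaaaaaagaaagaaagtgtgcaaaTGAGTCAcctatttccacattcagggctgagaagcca
The first 3 of these genes were detected and called in at least 1 comparison, and the last 4 were at or under the floor in every heart.

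*Mmp3* (ENSMUSG00000043613, chr9:7445822-7455975), stromelysin 1, was the one member of the families called in opposite directions on the 2 days. It had 12.1, 11.3, 3.06 and 2.82 CPM in the sham hearts, 19.3, 24.2, 12.0 and 23.7 CPM in day 1 AMI and 2.71, 2.86, 3.87 and 4.25 CPM in day 7 AMI. The sham hearts of replicates 1 and 2 were near the lowest day 1 heart, those of replicates 3 and 4 were within the day 7 range, and the groups overlapped in both comparisons with sham. It rose on day 1 (log2 FC 1.43 ± 0.40, adjusted p = 0.0103), and fell from day 1 to day 7 without overlap (log2 FC -2.53 ± 0.42, adjusted p = 0.000237). The day 7 value against sham was -1.10 ± 0.42 (adjusted p = 0.0362). This last call was lost in 10 of 15 other settings, with a log2 FC of -0.76 (adjusted p = 0.144) without the sham heart of replicate 1, of -0.80 (adjusted p = 0.131) without that of replicate 2, and of -0.93 (adjusted p = 0.0766) with a block for the replicate number.

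*Mmp12* (ENSMUSG00000049723, chr9:7344381-7369499), macrophage elastase, had 0.417, 0.287, 0.631 and 0.191 CPM in sham, 5.09, 4.80, 3.79 and 1.95 CPM in day 1 AMI and 8.63, 11.9, 6.05 and 3.67 CPM in day 7 AMI. All infarcted hearts were above all sham hearts, and the 2 days overlapped. *Mmp12* rose on day 1 with a log2 FC of 3.35 ± 0.47 (adjusted p = 0.000119) and on day 7 with a log2 FC of 4.30 ± 0.46 (adjusted p = 2.86e-06). The difference between the days was below the FC of 2 (log2 FC 0.95 ± 0.34, adjusted p = 0.0352). Macrophage markers summed to 282 to 438 CPM in sham, 538 to 761 CPM on day 1 and 806 to 1238 CPM on day 7, with 3 of 8 and 6 of 8 markers called higher, and their part in the *Mmp12* result was not tested.

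The collagenases had low counts. *Mmp8* (ENSMUSG00000005800, chr9:7558456-7568485), the neutrophil collagenase, had 1.15, 1.97, 0 and 0.143 CPM in sham, 1.19, 3.34, 0.785 and 1.26 CPM in day 1 AMI and 0.339, 0.232, 0.148 and 0.510 CPM in day 7 AMI. Sham hearts of replicates 1 and 2 lay within the range of day 1, and the other 2 were below the range of day 7. *Mmp8* was not called against sham on either day, and fell from day 1 to day 7 with a log2 FC of -2.39 ± 0.79 (adjusted p = 0.0231), a call lost without the day 1 heart of replicate 2 (log2 FC -1.78) and without the day 7 heart of replicate 2 or 3. *Mmp13* (ENSMUSG00000050578, chr9:7272514-7283331), the main interstitial collagenase of rodents, had 0.522, 0.575, 0.970 and 0.717 CPM in sham, 1.53, 1.73, 0.883 and 1.07 CPM in day 1 AMI and 1.60, 1.31, 1.18 and 1.77 CPM in day 7 AMI. The day 7 hearts were all above the sham hearts by a small margin. *Mmp13* rose on day 7 against sham with a log2 FC of 1.07 ± 0.29 (adjusted p = 0.0055), a call lost without sham replicate 1 or 2 or day 7 replicate 4, when the log2 FC was at most 0.99.

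**Figure D3:**
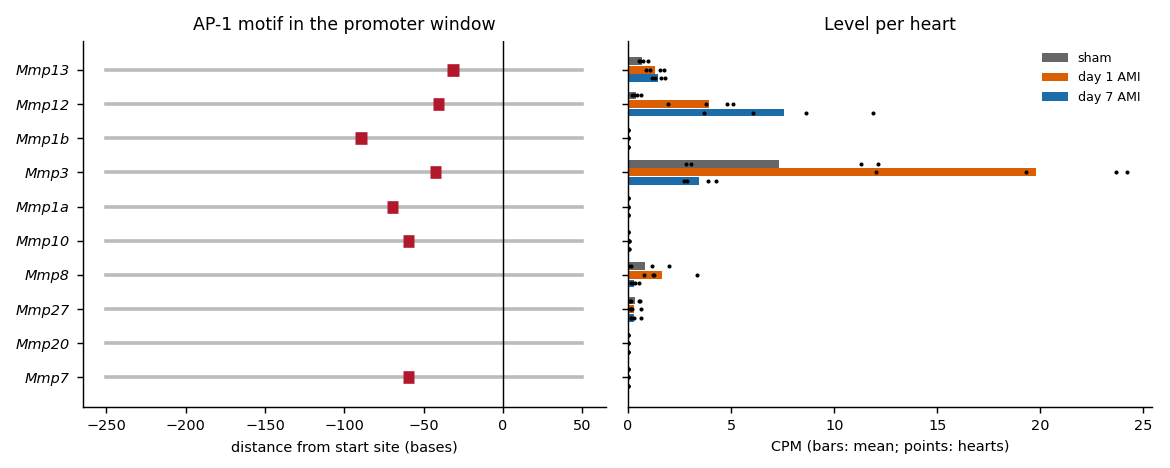
The 10 MMP genes of chromosome 9, in genome order. The left panel marks the AP-1 motif (red squares) within the window around each gene's start (x axis, bases from the start), and the right panel gives TMM-normalized CPM (x axis, linear), with bars for the mean of 4 hearts and a point for each heart. The motif stands in 7 genes, of which 4 (*Mmp1b*, *Mmp1a*, *Mmp10* and *Mmp7*) show no level that can be read off the plot, and *Mmp3* and *Mmp12* have the highest levels.

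The 6 neutrophil markers other than *Mmp8* and *Mmp9* summed to 29.3, 53.6, 2.91 and 2.25 CPM in the sham hearts, 66.6, 129, 37.0 and 59.7 CPM in day 1 AMI and 11.9, 7.26, 10.7 and 37.5 CPM in day 7 AMI. As for *Mmp3*, *Mmp8* and *Mmp9*, the sham hearts of replicates 1 and 2 were above those of replicates 3 and 4. *Ly6g*, the defining marker of mouse neutrophils, reached 0.329 CPM at most and was too low to be tested. Of the 5 markers that were tested, *Csf3r* and *Cxcr2* rose on day 1, with a log2 FC of 3.24 and 2.98. *S100a8* (1.22, adjusted p = 0.308), *S100a9* (1.22, adjusted p = 0.291) and *Retnlg* (-0.50, adjusted p = 0.681) did not pass the test on day 1. On day 7 *Csf3r* was still above sham with a log2 FC of 1.64, *Retnlg* was below it with -3.25, and the other 3 did not pass. Erythroid markers were also highest in the sham hearts of replicates 1 and 2, and summed to 1178, 4450.4, 491 and 576 CPM in the sham hearts, 420.4 to 649 CPM on day 1 and 241 to 969 CPM on day 7. Of these 5 markers 3 fell on each day against sham. The part of either marker list in the *Mmp3*, *Mmp8* and *Mmp9* results was not tested.

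The other secreted MMPs included 2 more that rose. *Mmp19* (ENSMUSG00000025355, chr10:128790910-128800824), which cleaves basement membrane proteins, had 3.86, 4.11, 2.76 and 2.39 CPM in sham, 11.1, 16.4, 9.91 and 11.1 CPM in day 1 AMI and 10.4, 8.04, 6.38 and 11 CPM in day 7 AMI. Each infarcted heart was above each sham heart, and the 2 days overlapped. It rose with a log2 FC of 1.88 ± 0.23 (adjusted p = 4.99e-05) on day 1 and a log2 FC of 1.44 ± 0.23 (adjusted p = 8.06e-05) on day 7, and 28.3% of its exonic bases overlap genes on the other strand. *Mmp23* (ENSMUSG00000029061, chr4:155650655-155653384), a small membrane-anchored enzyme that is released by cleavage, had 4.80, 6.74, 5.38 and 6.12 CPM in sham, 6.46, 6.03, 5.53 and 5.42 CPM in day 1 AMI and 36.6, 27.9, 23.2 and 29.7 CPM in day 7 AMI. Sham and day 1 hearts lay in one narrow range, with the day 7 hearts well above it. Its log2 FC was 0.02 ± 0.15 (adjusted p = 0.928) on day 1, 2.35 ± 0.15 (adjusted p = 3.38e-08) on day 7 and 2.33 ± 0.14 (adjusted p = 5.76e-08) between the days.

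Membrane-type MMPs are held at the cell surface. Against sham 2 of the 6 rose on each day, beside 7.79% of all tested genes on day 1 and 15.3% on day 7. *Mmp14* (ENSMUSG00000000957, chr14:54431612-54445364), which cleaves fibrillar collagen and activates MMP2 together with TIMP2, had 18.7, 25.2, 18.1 and 12.8 CPM in sham, 39.3, 60.3, 38.4 and 35.5 CPM in day 1 AMI and 249, 148, 100.4 and 147 CPM in day 7 AMI. The groups followed one another without overlap. It was the one family member to rise in all 3 comparisons, with a log2 FC of 1.21 ± 0.26 (adjusted p = 0.00239) on day 1, a log2 FC of 3.11 ± 0.28 (adjusted p = 5.73e-07) on day 7 and a log2 FC of 1.89 ± 0.26 (adjusted p = 5.56e-05) between the days. *Mmp16* (ENSMUSG00000028226, chr4:17852893-18119145), a close relative, had 0.574, 0.534, 0.534 and 0.335 CPM in sham, 0.727, 0.746, 0.785 and 1.04 CPM in day 1 AMI and 3.08, 1.82, 1.81 and 2.11 CPM in day 7 AMI. No 2 groups overlapped. It was not called on day 1 (log2 FC 0.74 ± 0.29, adjusted p = 0.0523) and rose on day 7, with a log2 FC of 2.15 ± 0.27 (adjusted p = 1.29e-05) against sham and a log2 FC of 1.42 ± 0.25 (adjusted p = 0.00038) against day 1. *Mmp24* had 0, 1, 2 and 0 counts in the sham hearts, 16, 40, 15 and 15 counts in day 1 AMI and 5, 3, 3 and 2 counts in day 7 AMI. Each sham heart was under the floor of 3 counts. Over the summed counts of the groups the ratio of day 1 to sham was 19.99, with a 95% counting interval from 6.62 to 98.8, and without the sham heart of replicate 3 it was 45.4, with an interval from 7.94 to 1815. It fell again from day 1 to day 7 (adjusted p = 0.000747), and 13.6% of its exonic bases overlap genes on the other strand. *Mmp15*, *Mmp17* and *Mmp25* were not called in any comparison.

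**Figure D4:**
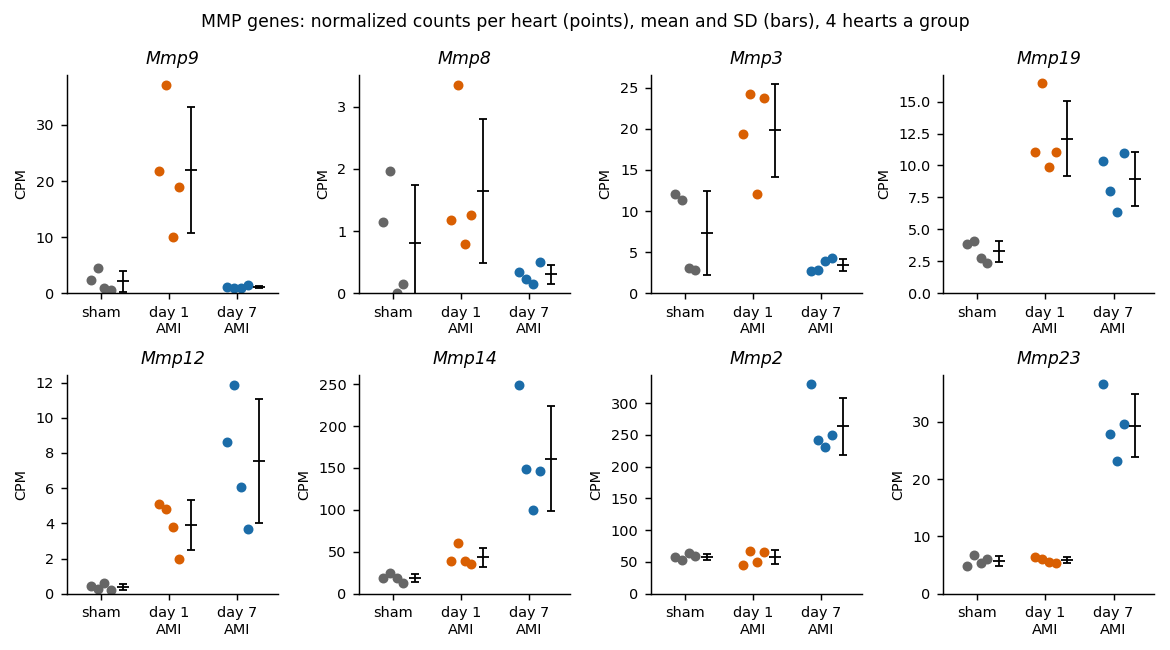
TMM-normalized CPM (y axes, linear, from 0) of 8 MMP genes in each heart, as points by group, with the mean and SD of 4 hearts beside them. *Mmp9* is highest in the day 1 hearts (10.01 to 37.1 CPM), *Mmp2* and *Mmp23* stand apart only in the day 7 hearts, and *Mmp14* steps up on both days.

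Of the 33 ADAM genes, 13 were tested. On day 1, 2 rose, on day 7, 4 rose, and none fell against sham. Of all tested genes, 7.79% and 15.3% were called higher on these days, and 2.98% and 5.88% lower. *Adam8* (ENSMUSG00000025473, chr7:139978932-139992562), found on granulocytes and monocytes, had 0.469, 2.09, 0.243 and 0.478 CPM in sham, 25.7, 34.9, 24.3 and 18.8 CPM in day 1 AMI and 21.7, 11, 6.64 and 7.92 CPM in day 7 AMI. Infarcted hearts were all above sham hearts, and the day 7 heart of replicate 1 lay within the day 1 range. *Adam8* rose on day 1 (log2 FC 4.90 ± 0.51, adjusted p = 2.07e-05) and on day 7 (log2 FC 3.77 ± 0.51, adjusted p = 2.37e-05). The lower level on day 7 than on day 1 (log2 FC -1.13 ± 0.38, adjusted p = 0.0259) lost its call in 7 of 15 other settings, among them DESeq2 (adjusted p = 0.111) and the fits without the day 1 heart of replicate 2 or the day 7 heart of replicate 2, 3 or 4. The sham heart of replicate 2 stood above the others, and without it the log2 FC against sham was 6.02 on day 1 and 4.89 on day 7.

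*Adam12* (ENSMUSG00000054555, chr7:133883199-134232146), a marker of activated mesenchymal cells, had 0.522, 0.575, 1.41 and 0.622 CPM in sham, 14.6, 25.9, 17.3 and 14.2 CPM in day 1 AMI and 48.9, 25.4, 14.1 and 22.2 CPM in day 7 AMI. No infarcted heart was within the sham range, and the 2 days overlapped. The log2 FC was 4.53 ± 0.44 (adjusted p = 1.2e-05) on day 1 and 5.15 ± 0.44 (adjusted p = 3.92e-07) on day 7, the largest of the families on day 7 among genes with counts in every sham heart, and 0.62 ± 0.31 (adjusted p = 0.119) between the days. *Adam19* (ENSMUSG00000011256, chr11:46055992-46147343), which sheds neuregulin, had 32.2, 27.3, 28.8 and 19.6 CPM in sham, 47.7, 53.1, 43.1 and 34.1 CPM in day 1 AMI and 134, 69.4, 68.0 and 82.2 CPM in day 7 AMI. The 3 groups did not overlap, although the day 1 difference stayed below the FC of 2 (log2 FC 0.72 ± 0.21, adjusted p = 0.0151). It rose on day 7 against sham with a log2 FC of 1.71 ± 0.22 (adjusted p = 1.27e-05), and day 7 against day 1 gave a log2 FC of 0.99 ± 0.21 (adjusted p = 0.0016). *Adam33* (ENSMUSG00000027318, chr2:131050591-131063814) had 2.09, 2.55, 1.12 and 2.44 CPM in sham, 1.26, 1.22, 1.37 and 1.20 CPM in day 1 AMI and 2.37, 2.55, 2.51 and 3.06 CPM in day 7 AMI. The day 1 hearts lay close together at the lower end of the sham range, and *Adam33* rose from day 1 to day 7 with a log2 FC of 1.05 ± 0.23 (adjusted p = 0.00184), a call lost without the day 7 heart of replicate 4 (log2 FC 0.97).

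*Adam5* was the fourth ADAM called higher on day 7 against sham (adjusted p = 0.004), from 0, 2, 5 and 0 counts in sham hearts to 18, 12, 10 and 12 counts, and the day 1 hearts had 1, 2, 1 and 1 counts. Each day 1 heart was under the floor of 3 counts, and without the sham heart of replicate 3, which held 5 of the 7 sham counts, the fitted log2 FC against sham moved from 2.39 to 3.68. *Adam15* (ENSMUSG00000028041, chr3:89338542-89349996) was the most abundant ADAM per length in all 3 groups, with 45.8 ± 15.2, 84.3 ± 10.3 and 114 ± 12.7 TPM (SD, n = 4). Its CPM were 71.1, 97.4, 63.2 and 66.6 in sham, 96.6, 119, 103 and 98.0 in day 1 AMI and 142, 106, 120.1 and 129.9 in day 7 AMI. Its log2 FC on day 7 was 0.74 ± 0.13 (adjusted p = 0.000257), below the FC of 2, and 20.6% of its exonic bases overlap genes on the other strand. *Adam10* and *Adam17*, the main sheddases of Notch and of TNF, were not called, with a log2 FC on day 7 against sham of 0.85 (adjusted p = 7.87e-07) and 0.49 (adjusted p = 0.000476). On the scale of log2(TPM + 1), which moves the median gene, *Adam9*, *Adam10*, *Adam15* and *Adam17* passed the FC of 2 on day 7.

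Of the 19 ADAMTS genes, 17 were tested. Against sham 4 rose on day 1 and 10 rose on day 7, 6 rose between the days, and none fell in any comparison. Of all tested genes, 7.79%, 15.3% and 8.55% were called higher in these comparisons, and 2.98%, 5.88% and 2.69% lower. The proteoglycanases, which cleave aggrecan and versican, gave 3 of the 4 calls on day 1. *Adamts4* (ENSMUSG00000006403, chr1:171250421-171260637), aggrecanase 1, had 1.41, 3.53, 0.485 and 0.0956 CPM in sham, 24.9, 45.6, 14.6 and 8.86 CPM in day 1 AMI and 28.0, 9.43, 5.94 and 16.2 CPM in day 7 AMI. All infarcted hearts were above the sham hearts, which ranged widely and in replicate 4 were below the floor. Its rise came to a log2 FC of 4.03 ± 0.72 (adjusted p = 0.000665) on day 1 and a log2 FC of 3.38 ± 0.72 (adjusted p = 0.00104) on day 7. Without the sham heart of replicate 2, the highest, these values were 5.17 and 4.52. *Adamts8* (ENSMUSG00000031994, chr9:30942562-30963838) had 1.10, 1.44, 0.922 and 1.58 CPM in sham, 9.75, 7.19, 5.36 and 2.62 CPM in day 1 AMI and 8.47, 6.45, 6.57 and 6.56 CPM in day 7 AMI. The day 7 hearts lay within the wider range of day 1, and both days were above sham. It rose with a log2 FC of 2.29 ± 0.34 (adjusted p = 0.000161) on day 1 and a log2 FC of 2.47 ± 0.33 (adjusted p = 2.3e-05) on day 7, and 10.6% of its exonic bases overlap genes on the other strand.

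*Adamts1* (ENSMUSG00000022893, chr16:85793827-85803113), a versican-cleaving enzyme that is induced early in injury, had 39.9, 48.0, 44.4 and 46.0 CPM in sham, 118, 166, 76.3 and 49.97 CPM in day 1 AMI and 55.2, 45.8, 56.3 and 54.8 CPM in day 7 AMI. The day 1 hearts spread widely upward from just above the sham range, and the day 7 hearts overlapped with sham. It rose on day 1 with a log2 FC of 1.20 ± 0.26 (adjusted p = 0.00231), a call lost without the day 1 heart of replicate 2 (log2 FC 0.87). Day 7 against sham gave a log2 FC of 0.25 ± 0.26 (adjusted p = 0.423), and day 7 against day 1 gave a log2 FC of -0.95 ± 0.26 (adjusted p = 0.00756). *Adamts20* (ENSMUSG00000022449, chr15:94270163-94465418) was near 1 CPM, with 0.522, 0.534, 0.437 and 0.383 CPM in sham, 0.650, 0.716, 0.458 and 0.378 CPM in day 1 AMI and 1.14, 1.62, 1.33 and 1.02 CPM in day 7 AMI, and rose on day 7 against sham (log2 FC 1.43 ± 0.29, adjusted p = 0.000612). *Adamts5*, the other main aggrecanase, had a log2 FC of -0.70 on day 1 (adjusted p = 0.000246) and 0.05 on day 7 and was not called. Neither were *Adamts9* and *Adamts15*.

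The procollagen N-proteinases trim the amino end of fibrillar procollagens so that fibrils can form. *Adamts2* (ENSMUSG00000036545, chr11:50602084-50807573) had 35.7, 35.5, 36.7 and 30.1 CPM in sham, 52.5, 65.6, 53.2 and 59.1 CPM in day 1 AMI and 277, 213, 210.0 and 235 CPM in day 7 AMI. The 3 groups stood apart, with a larger step to day 7. Its day 1 value was below the FC of 2 (log2 FC 0.74 ± 0.11, adjusted p = 0.000147), and it rose on day 7 with a log2 FC of 2.76 ± 0.11 (adjusted p = 1.15e-09) against sham and a log2 FC of 2.02 ± 0.11 (adjusted p = 1.64e-08) against day 1. *Adamts14* (ENSMUSG00000059901, chr10:61197112-61273438) had 1.30, 1.97, 1.70 and 1.58 CPM in sham, 3.14, 4.39, 4.51 and 3.72 CPM in day 1 AMI and 11.3, 5.18, 5.16 and 8.71 CPM in day 7 AMI. It rose with a log2 FC of 1.26 ± 0.27 (adjusted p = 0.00198) on day 1 and a log2 FC of 2.20 ± 0.26 (adjusted p = 7.43e-06) on day 7, with no overlap between groups. *Adamts3*, the remaining member of this group, was not called.

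Among the other ADAMTS genes 5 of 7 tested rose on day 7 against sham, beside 15.3% of all tested genes. None was called on day 1, where 10.8% of all tested genes were called. *Adamts12* (ENSMUSG00000047497, chr15:11064790-11349231), which cleaves cartilage oligomeric matrix protein, had 2.61, 2.09, 3.64 and 2.63 CPM in sham, 4.67, 5.16, 4.32 and 4.60 CPM in day 1 AMI and 35.7, 30.3, 21.0 and 24.3 CPM in day 7 AMI. The day 7 hearts were far above the rest. *Adamts12* had a log2 FC of 0.78 ± 0.19 (adjusted p = 0.00539) on day 1 and 3.35 ± 0.19 (adjusted p = 1.62e-08) on day 7. *Adamts10* (ENSMUSG00000024299, chr17:33524204-33553782), which binds fibrillin, had 26.3, 34.6, 31.0 and 36.1 CPM in sham, 26.2, 26.3, 30.2 and 26.6 CPM in day 1 AMI and 107, 86.7, 101 and 124 CPM in day 7 AMI. Sham and day 1 hearts overlapped, and it rose on day 7 with a log2 FC of 1.71 ± 0.12 (adjusted p = 8.03e-08) against sham. *Adamts17* (ENSMUSG00000058145, chr7:66839735-67153171) had 0.835, 0.329, 1.26 and 1.10 CPM in sham, 0.727, 0.418, 0.687 and 0.473 CPM in day 1 AMI and 4.04, 4.60, 4.54 and 4.90 CPM in day 7 AMI. By counts it rose on day 7 with a log2 FC of 2.37 ± 0.30 (adjusted p = 1.21e-05) against sham and 2.97 ± 0.30 (adjusted p = 4.71e-06) against day 1. With limma on log2(TPM + 1) these were 0.84 (adjusted p = 0.0558) and 0.46 (adjusted p = 0.336). On log2(TPM + 0.1) the value against day 1 was 1.17 (adjusted p = 0.187), again not called. The day 1 heart of replicate 1 had 4.16 TPM on 19 counts, and the other day 1 hearts had 0.19 to 0.41 TPM. The part of that heart in the TPM results was not tested.

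*Adamts16* (ENSMUSG00000049538, chr13:70727802-70841811) had no count in any sham heart, and 0, 1, 0 and 1 counts in day 1 AMI. In day 7 AMI it had 354, 118, 47 and 66 counts, or 10.9, 4.56, 1.73 and 2.24 CPM. Day 7 was at least 34.2-fold higher than the sham floor of 3 counts per library, and over the summed counts the ratio of day 7 to day 1, where each heart was under the floor, was 311 with a 95% counting interval from 85.6 to 2571. All 4 day 7 hearts held it, at widely different levels, with the heart of replicate 1 the highest. Without that heart day 7 was at least 20.02-fold higher than the sham floor, and the ratio to day 1 was 171 with an interval from 46.8 to 1420.1. *Adamts6* rose on day 7 with a log2 FC of 1.05 (adjusted p = 6.38e-06), which was 0.99 and no longer called without the day 7 heart of replicate 1.

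The ADAMTS-like proteins bind to fibrillin microfibrils and other matrix fibers. None of the 5 was called on day 1, where 10.8% of all tested genes were called. On day 7, 2 rose against sham, beside 15.3% of all tested genes. *Adamtsl2* (ENSMUSG00000036040, chr2:27079379-27108981) had 7.98, 8.75, 12.2 and 14.3 CPM in sham, 7.53, 13.4, 8.44 and 10.9 CPM in day 1 AMI and 118, 92.0, 114 and 119.9 CPM in day 7 AMI. Sham and day 1 hearts shared one range, and the day 7 hearts were all far above it. For *Adamtsl2* the log2 FC was -0.10 ± 0.20 (adjusted p = 0.714) on day 1, 3.36 ± 0.20 (adjusted p = 2.82e-08) on day 7 and 3.46 ± 0.20 (adjusted p = 3.61e-08) between the days. *Adamtsl3* (ENSMUSG00000070469, chr7:82335694-82614450) had 9.34, 10.1, 5.77 and 5.69 CPM in sham, 9.48, 7.16, 9.45 and 5.17 CPM in day 1 AMI and 29.3, 16.3, 16.3 and 16.8 CPM in day 7 AMI, and rose on day 7 with a log2 FC of 1.35 ± 0.25 (adjusted p = 0.00039). The most abundant per length, *Adamtsl5* (ENSMUSG00000043822, chr10:80339110-80348412), had 95.1, 106, 109.9 and 99.9 CPM in sham, 151, 149.9, 143 and 118 CPM in day 1 AMI and 113, 109, 125 and 110.4 CPM in day 7 AMI. Its day 1 hearts were above the sham hearts but below the FC of 2 (log2 FC 0.45 ± 0.09, adjusted p = 0.00126).

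**Figure D5:**
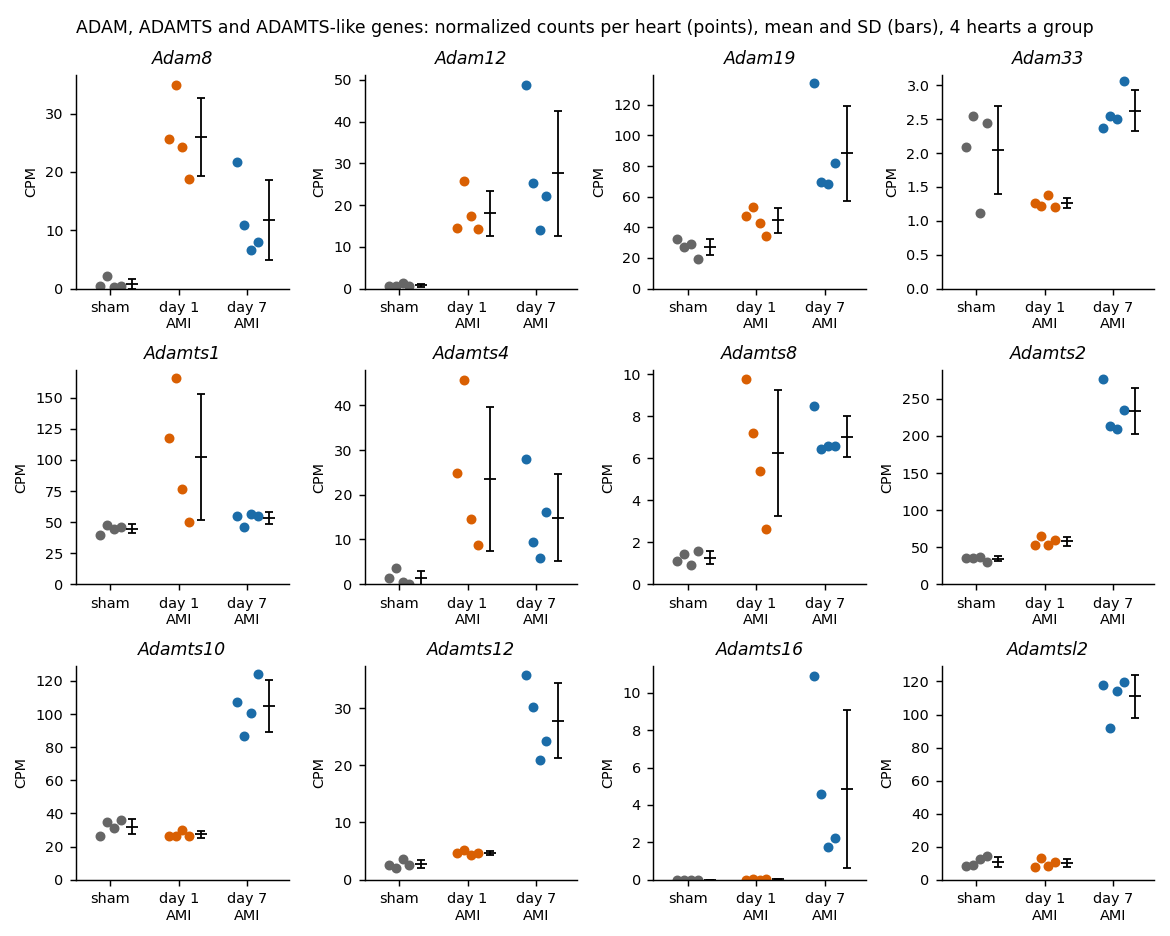
TMM-normalized CPM (y axes, linear, from 0) of 12 ADAM, ADAMTS and ADAMTS-like genes in each heart, as points by group, with the mean and SD of 4 hearts beside them. *Adam8*, *Adam12*, *Adamts4* and *Adamts8* are above sham on both days, *Adamts2*, *Adamts10*, *Adamts12*, *Adamts16* and *Adamtsl2* are highest on day 7 without overlap, and *Adamts1* is above sham on day 1.

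The 24 tested genes called in no comparison were *Timp3*, 6 MMPs (*Mmp11*, *Mmp15*, *Mmp17*, *Mmp25*, *Mmp27* and *Mmp28*), 8 ADAMs (*Adam1a*, *Adam9*, *Adam10*, *Adam11*, *Adam15*, *Adam17*, *Adam22* and *Adam23*), 6 ADAMTS genes (*Adamts3*, *Adamts5*, *Adamts7*, *Adamts9*, *Adamts15* and *Adamts19*) and 3 ADAMTS-like genes (*Adamtsl1*, *Adamtsl4* and *Adamtsl5*). Their log2 FC against sham lay between -0.70 (*Adamts5*) and 0.87 (*Adam9*) on day 1, and between -0.93 (*Adam22*) and 1.40 (*Mmp25*, adjusted p = 0.0772) on day 7. Of these 24, 7 on day 1 and 12 on day 7 had an adjusted p below 0.05 with a smaller change than the FC of 2. Counts of *Adam1a* may include reads of neighboring genes, which overlap 63.7% of its exonic bases on the same strand.

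Fibroblast markers summed to 734 to 941 CPM in sham hearts, 778 to 975 CPM on day 1 and 2654 to 6148 CPM on day 7. Of these 6 markers *Col1a1*, *Lum* and *Tcf21* rose on day 7 against sham, while *Pdgfra*, *Dpt* and *Dcn* did not pass the FC of 2. *Col1a1* made up most of the day 7 sum, with 110.02 to 152 CPM in sham hearts, 297 to 427 CPM on day 1 and 5188, 2464, 1482 and 2434 CPM on day 7. A sum of the other 5 markers, chosen after seeing the data, was 589 to 808 CPM in sham hearts, 471 to 553 CPM on day 1 and 959.8, 1177, 1172 and 1157 CPM on day 7. *Dcn* held the largest part of this sum, with 410 to 618 CPM in sham hearts and 272 to 349 CPM on day 1. On day 1 *Dcn* and *Dpt* were lower (log2 FC -0.72 and -0.40) and *Pdgfra* and *Lum* higher (0.53 and 0.29). All of these had an adjusted p below 0.05 but stayed below the FC of 2, and *Tcf21* did not pass (-0.02, adjusted p = 0.919). For *Dpt* and *Tcf21* the lowest day 7 heart was that of replicate 2. The day 7 heart of replicate 1, the highest for *Col1a1* and the lowest for the other 5 markers together, was the highest day 7 heart for 18 of the 25 family members that rose on day 7. How often it was the highest among all genes called higher on day 7 was not counted. Without this heart, 24 family members rose and 1 fell on day 7 against sham. The part of fibroblast number in the day 7 results was not tested.

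Genes that act on these families, substrates of ADAMTS enzymes and some related proteases were followed as one list of 27, of which 22 were tested. On day 1, 5 rose and none fell, and on day 7, 10 rose and none fell against sham. Of all tested genes, 7.79% were called higher and 2.98% lower on day 1, and 15.3% and 5.88% on day 7. *Plau*, the gene of urokinase, which generates plasmin and so starts the activation of several MMPs, had a log2 FC of 1.87 on day 1 and 1.73 on day 7. Its receptor *Plaur* had 3.27 and 1.45. The ADAMTS substrate *Vcan* (1.44 and 2.25) also rose on both days, as did *Acan*, which had at most 0.452 CPM in sham hearts, 0.757 to 0.895 CPM on day 1 and 4.17 to 19.4 CPM on day 7. Of 7 partners of ADAM10 and ADAM17, 1 (*Tspan17*) rose on day 7, and none of 4 convertases and inducers was called. Below the FC of 2, *Bsg* was lower against sham on day 1 (-0.64, adjusted p = 7.84e-05) and day 7 (-0.94, adjusted p = 5.96e-07). *Pcsk6* was lower on day 1 (-0.98, adjusted p = 0.000109) and *Pcsk5* higher on day 7 (0.81, adjusted p = 0.000446), also below that FC. *Furin* did not pass the test against sham on either day. Of 4 genes listed for inhibition or clearance, *Lrp1* (1.03) and *Papln* (1.17) rose on day 7 against sham. *Plat* (1.51) and *Serpine2* (1.55), listed with *Plau* among plasminogen activators and the genes that control them, also rose on day 7. The MMP inhibitor *Reck* rose from day 1 to day 7 with a log2 FC of 1.19.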

How the data were processed

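RNA from whole hearts of C57BL/6N mice was sequenced after sham surgery, on day 1 and on day 7 after AMI, with 4 hearts per group, assigned by their labels. Other experiments of the study were not used here. The authors primed cDNA with random hexamers, read 150-bp pairs, trimmed with Cutadapt, and used STAR with Ensembl's GRCm38 genome (per the labels CASAVA 1.8, STAR 2.4.0j and RSEM). Raw counts (whole, not normalized) of 53801 genes were deposited by the authors, as were TPM from RSEM, rounded to 2 decimals. The counting tool, the strand counted and the handling of reads that map to several genes are not given in the sources used here, so reads of a gene and of an antisense neighbor cannot be told apart. Gene coordinates are those of GENCODE M21 (GRCm38), in which all 84 identifiers carry the same symbol.

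Groups were compared with edgeR 4.0.16 under R 4.3.3 (TMM, filterByExpr by group, quasi-likelihood test on one fit of 12 libraries), with Benjamini-Hochberg adjustment over 15306 genes and a FC minimum of 2. The SE of a log2 FC is the one implied by the F statistic. The study names DESeq2, which was used as an alternative (DESeq2 1.42.0). Others were its size factors, no filter, limma 3.58.1 on log2(TPM + 1) and log2(TPM + 0.1), only the groups compared, a block for the replicate number, no FC minimum, and leaving out each heart in turn. Code was tested on simulated data. Depth was 23204551 to 32166517 counts per library. Libraries of one group differed by at least 9.41 in chi-square per degree of freedom, so none repeated another. The hearts of a group are separate samples by their labels. Counting intervals are exact 95% intervals for a ratio of 2 Poisson counts and cover counting error only.

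The gene families, the lists and the rule for named genes were chosen with earlier results of these data known. In each role group, values per heart are given for called genes with a group mean of at least 1 CPM, at most 4 by their change against sham, and for the member with the highest mean TPM. *Timp3*, *Mmp24*, *Adam5* and *Adamts6* and the uncalled genes given with a value were added after their values were seen. So were the values of *Lrp1*, *Papln*, *Plat*, *Serpine2*, *Bsg*, *Pcsk5* and *Pcsk6*. Promoters were those of RefSeq (GRCm38.p6), which hold 53 of the 84 genes. Protein sequences were not analysed here. One gene of the list of regulators is not reported here. Plots used matplotlib 3.10.9 (Python 3.11.15).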

Additional observations from a re-analysis of the deposited data

Results flagged for a closer look

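In groups of 4 hearts, 1 heart lay far from the other 3 by Dixon's test in 8 of 93 groups examined over 31 genes. For independent and normally distributed values, chance gives this in about 1 in 20 groups. The CPM were not log-transformed and the same hearts recur over the genes, so 8 of 93 cannot be set against that rate. In sham the hearts flagged were *Adam8* in replicate 2 (2.09 CPM), *Adam12* in replicate 3 (1.41 CPM) and *Mmp16* in replicate 4 (0.335 CPM). In day 1 AMI they were *Mmp14* in replicate 2 (60.3 CPM) and *Adamts10* in replicate 3 (30.2 CPM). In day 7 AMI they were *Adamts8* (8.47 CPM) and *Adamtsl3* (29.3 CPM) in replicate 1 and *Adamts1* in replicate 2 (45.8 CPM).

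*Mmp3* moved in opposite directions against sham on the 2 days, and its direct comparison of day 7 with day 1 gave a log2 FC of -2.53 (adjusted p = 0.000237 by edgeR's quasi-likelihood test). This call held in all 15 other settings, while the fall on day 7 against sham was lost in 10 of them.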

How the results depend on the processing

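Counts of called family members ran from 13 to 19 on day 1, from 24 to 35 on day 7 and from 15 to 24 between the days over the alternatives with the FC minimum, and without that minimum they were 27, 39 and 38. Leaving out each heart in turn gave 13 to 15, 25 to 31 and 20 to 24. Of 62 called values, none changed direction, 43 were kept in every setting, and 11 were lost only with limma on TPM, where the median of all genes moved by 0.23, 0.44 and 0.18 with a pseudocount of 1 and by 0.31, 0.57 and 0.25 with 0.1. With the latter, 17 family members rose and 3 fell between the days, against 15 and 6 by counts. The cause of these differences was not tested. With the replicate number as a block, 14, 26 and 21 members were called, and the call lost was that of *Mmp3* on day 7. Hearts of one number are different mice, and their deviations correlated by -0.24 to 0.23, over 0.1 in 4 of 12 pairs. Every pair of replicate 3 was among these 4, with 0.12, 0.13 and 0.15. Whether hearts of one number shared a batch was not tested. The 28 untested genes had few counts, and 15 of them had none in any library. The folds of *Adam5*, *Adamts16*, *Mmp8* and *Mmp24* rest on few or no counts in at least 1 group. The part of depth in this was not tested.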
